A study of Mus musculus with 2 samples.

Results

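The kallikreins of the epidermis are secreted serine proteases encoded side by side in 1 gene cluster, and the main inhibitor that restrains them in skin is LEKTI, the product of *Spink5*. Here 8 of these proteases and *Spink5* were followed in the tooth germ of the mouse incisor, with and without *Sox21*, which is 9 of the 21244 genes that have a probe and a reference symbol on the array. The members are the probes named *Klk5*, *Klk6*, *Klk7*, *Klk8*, *Klk10*, *Klk11*, *Klk13*, *Klk14* and *Spink5* in the scanner files, with 1 probe and 1 spot for each gene. All 9 carried the RefSeq accession of the gene they name, and 0 other probes carried one of these accessions.

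In the epidermis these proteases cut the proteins that hold cornified cells together, so that dead cells are shed from the surface. They are made as inactive precursors, and they can activate each other once 1 of them has been cut. LEKTI is split into fragments that block KLK5, KLK7 and KLK14, and its loss in people causes Netherton syndrome, a disease of uncontrolled skin shedding. In the tooth the best known kallikrein is a different one, KLK4, which ameloblasts secrete to degrade enamel matrix.

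The study had 1 wild-type array and 1 *Sox21* KO array, both of incisor germs taken at postnatal day 0 by the sample labels, whereas the study's text gives the following day. Wild-type mice were C57BL/6J, and the *Sox21* KO line lacks this transcription factor in the whole animal, skin and oral lining included, rather than in the tooth alone. The germs held both epithelium and mesenchyme, and how many animals gave each RNA is not given in the sources used here. With 1 array per genotype no difference below has a replicate check, no test was possible, and precision is limited by having so few arrays.

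*Sox21* itself read 5.09 times the 75th percentile of the array in wild-type and 2.39 times in *Sox21* KO at the brighter of its probes, a log2 ratio of -1.09. The other probe gave -1.51, and both were still well above background on the array labelled *Sox21* KO. They start at positions 2842 and 2405 of the transcript, and whether the allele removes those positions is not given in the sources used here. Of 11 listed ameloblast genes, which check the tissue, 10 were well above background on both arrays, among them *Amelx*, which encodes the main enamel matrix protein, at 1472 and 1554 times the 75th percentile. Of the spots other than controls, 49.7% in wild-type and 50.4% in *Sox21* KO were well above background by the scanner's mark. A gene is called readable below where its probe had this mark on both arrays, and dark where it had it on neither.

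The signal of a member comes from a single stretch of 60 bases, so the probes that the results turn on are shown first. The probes of *Klk8* and *Klk10*, the members with readable signal that moved least, are given whole. Both read without a stop codon in 1 frame. That of *Klk8* lies at chr7:51057455-51057514 and that of *Klk10* at chr7:51039077-51039720 of mm9, on the plus strand. The *Klk10* probe spans 644 bases of the genome with its 60 bases, so it lies across a splice junction.
Klk8 probe: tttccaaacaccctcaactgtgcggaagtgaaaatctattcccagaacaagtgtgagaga
Klk10 probe: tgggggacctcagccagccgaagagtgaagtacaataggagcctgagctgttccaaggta

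For *Klk13* and *Klk5*, the kallikrein past 2-fold and the one above background on the *Sox21* KO array alone, 30 bases of each probe are shown, with the letters of the polyadenylation hexamer AATAAA in capitals. The *Klk13* probe lies at chr7:50982064-50982123 and the *Klk5* probe at chr7:51106492-51106551, also on the plus strand of mm9. The stretches shown are bases 24 to 53 and bases 26 to 55 of the probes.
Klk13 probe part: caaagggcacacAATAAAattgtgttcatt
Klk5 probe part: atttagacctcaAATAAAaaacgggaagaa

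None of the 9 member probes shared a run of 20 bases with another probe on the array on either strand. The hexamer was also present in the *Klk7* probe. The member probes differ in where they sit on the transcript and in their base composition, from 35.0% to 55.0% G and C, and no ranking of the members by brightness is given.

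*Spink5* was the member with the largest difference. In wild-type its signal was 182 ± 19.1 and in *Sox21* KO 762 ± 76.4, where the error is the scanner software's estimate for a single spot and not a spread between animals. Divided by the 75th percentile of each array, which was 267.7 and 275.6, these are 0.678 and 2.77, hereafter called normalized signals. The ratio was 4.08-fold, or 2.03 on the log2 scale, with a scanner error of 0.21. Across the 13803 genes well above background on both arrays, 7 had a log2 ratio at least as high, *Spink5* included.

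*Klk13*, a trypsin-like member of the family, was the other gene past 2-fold. Its signal was 40.3 ± 6.64 in wild-type and 129.5 ± 13.8 in *Sox21* KO, and its normalized signal 0.151 and 0.470. The ratio was 3.12-fold, or 1.64 ± 0.28 on the log2 scale, and 21 of the 13803 genes had a ratio at least as high. The wild-type value was dim. Of the 308 negative control spots on that array, 1 reached it, and under normexp background correction, run with a constant of 50 added to every signal, the log2 ratio of *Klk13* was 0.85 and no longer past 2-fold. *Spink5* was at 1.65 under the same correction. Both genes are in a list that the study itself drew from these arrays, so their higher signal is not independent evidence here.

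*Klk11*, *Klk10* and *Klk8* were readable on both arrays and moved by less than 2-fold. *Klk11*, a trypsin-like protease found in skin and brain, had normalized signals of 1.65 in wild-type and 2.53 in *Sox21* KO, a log2 ratio of 0.62 ± 0.20. *Klk10* had 1.90 and 2.17, a log2 ratio of 0.20 that is as large as its scanner error of 0.20. *Klk8*, also named neuropsin, a protease of the upper epidermis and the hippocampus, had 4.36 and 3.46, and its log2 ratio of -0.33 ± 0.20 was the one below 0 among the 5 readable members. The SD of the log2 ratio between spots of 1 probe had a median of 0.0856 over 269 probes spotted at least 5 times and well above background on both arrays. It was 0.247 over the 55 of these with a mean normalized signal under 0.5, the range in which *Klk13* lies.

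*Klk5*, whose product is a starter of the epidermal cascade, was well above background on the *Sox21* KO array alone. Its signal was 6.03 ± 6.06 in wild-type and 31.8 ± 6.25 in *Sox21* KO, so the wild-type reading was no larger than its own error. Before background removal the spot read 48.3 in wild-type and 66.9 in *Sox21* KO, over local backgrounds of 27 and 22. In wild-type the lowest normalized signal with that mark was 0.0796, and against that floor the *Klk5* value of 0.115 in *Sox21* KO stood at least 1.45-fold higher. It did not reach a bound of 2-fold, which 12.7% of the genes above background on that array alone did. On the *Sox21* KO array 0 of 308 negative control spots reached the *Klk5* signal. Among probes spotted at least 5 times that were not well above background there, 4 of 1108 single spots did, or 10 of 1220 with the spots marked as outliers kept. With 1 spot, *Klk5* cannot be compared with repeats of itself. The bound ranged from 0.13 to 0.63 on the log2 scale over the scalings and background corrections tried.

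*Klk6*, *Klk7* and *Klk14* were not well above background in either genotype and have no ratio. These 3 of 9 compare with 31.6% of all genes with a probe. *Klk7*, the chymotrypsin-like enzyme of skin shedding and a target of LEKTI, read 5.61 ± 5.63 in wild-type and 4.98 ± 5.02 in *Sox21* KO. Of the 308 negative control spots, 69 in wild-type and 87 in *Sox21* KO were as bright or brighter. *Klk6*, known from the nervous system and from skin, read 5.42 ± 5.44 and 4.92 ± 4.94. *Klk14*, another target of LEKTI, read 21.9 in wild-type and 16.5 ± 5.48 in *Sox21* KO. It was positive and significant by the scanner's weaker mark on both arrays, and 3 and 2 negative control spots reached it. A single probe that is dark limits what can be said to this stretch of the transcript.

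**Figure D1:**
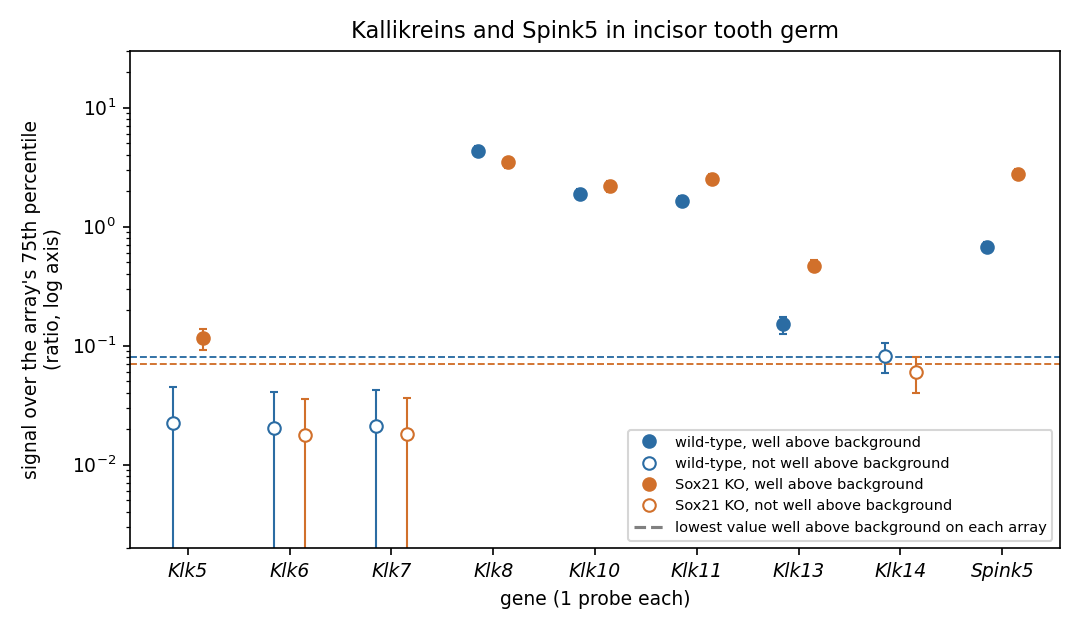
Normalized signal (signal over the 75th percentile of the array, log axis) of the 9 members on the wild-type array (blue) and the *Sox21* KO array (orange), 1 spot each, with the scanner's error as bars. Bars that run off the lower edge have an error as large as the signal, open circles were not well above background by the scanner's own mark, and dashed lines give the lowest value so marked on each array. *Spink5* and *Klk13* are higher on the *Sox21* KO array, *Klk5* crosses its line on that array alone, and *Klk6* and *Klk7* lie far below both lines.

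In counts, 5 of the 9 members were well above background on both arrays, against 65.0% of all genes with a probe. One member was so on the *Sox21* KO array alone, which held for 2.11% of all genes. Higher in *Sox21* KO were 4 of the 5, against 52.4% of all readable genes. Past 2-fold in that direction were 2, against 0.739% of the 13803 genes, and past 2-fold lower were 0, against 0.667%. The median log2 ratio of the 5 was 0.62, and it was 0.58 over 6 with *Klk5* at its bound, while the median over all 13803 genes was 0.01. The middle 90% of those genes ran from -0.47 to 0.48. The members were proposed with results of these arrays in view, so the counts describe them and give no test.

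**Figure D2:**
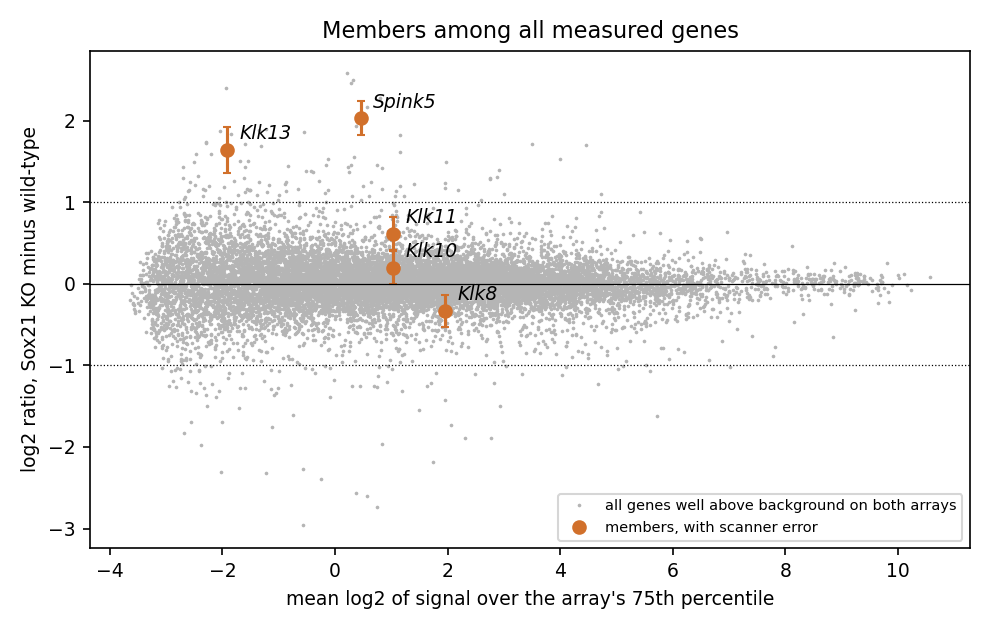
Log2 ratio (*Sox21* KO minus wild-type) against the mean log2 normalized signal of each of the 13803 genes well above background on both arrays (grey), with the 5 readable members in orange and bars for the scanner error. *Spink5* and *Klk13* stand above the dotted line at 2-fold, while *Klk8*, *Klk10* and *Klk11* lie between the dotted lines.

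Because inhibitor and proteases were read on the same arrays, their differences can be set against each other. The log2 ratio of *Spink5* exceeded that of *Klk8* by 2.36 ± 0.29, that of *Klk10* by 1.83 ± 0.29 and that of *Klk11* by 1.41 ± 0.29, where the error combines the scanner errors of both probes. It exceeded that of *Klk13* by 0.39 ± 0.35, which is close to the error. These errors are of single spots and hold no spread between animals. Under normexp background correction *Spink5* and *Klk13* lay farther apart, at log2 ratios of 1.65 and 0.85. For the targets of LEKTI named above no such difference can be given, since *Klk7* and *Klk14* were dark and *Klk5* has a bound alone.

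The kallikreins lie in 1 cluster on mouse chromosome 7. The array has probes for 26 kallikrein genes there, spread over 534 kb of mm9, and the members form its first stretch from *Klk14* to *Klk5*. Within that stretch *Klk12* and *Klk9*, which are not members, were readable. *Klk12*, between *Klk13* and *Klk11*, had normalized signals of 0.201 and 0.208 and a log2 ratio of 0.05, against 1.64 for *Klk13* beside it. *Klk9*, between *Klk10* and *Klk8*, had 0.402 and 0.518, a log2 ratio of 0.37.

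The next gene after *Klk5* is *Klk4*, the enamel protease, whose probe lies 35 kb away. Its normalized signal was 46.5 in wild-type and 22.5 in *Sox21* KO, a log2 ratio of -1.05. It is in the study's own list too, and the study also reported lower *Klk4* in *Sox21* KO by qPCR of tooth germs, with error bars from technical replicates. The probes of *Klk13* and *Klk5* are 124 kb apart, and the readable genes from one to the other ran from -0.33 to 1.64. Of the 18 other kallikrein genes listed, 8 were readable on both arrays, against 65.0% of all genes, and of these 2 had a positive log2 ratio and 6 a negative one, against 52.4% and 47.6% of all readable genes, with a median of -0.31. The genes that flank the cluster before *Klk14*, *Siglece* and *Ctu1*, had 0.05 and 0.04.

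**Figure D3:**
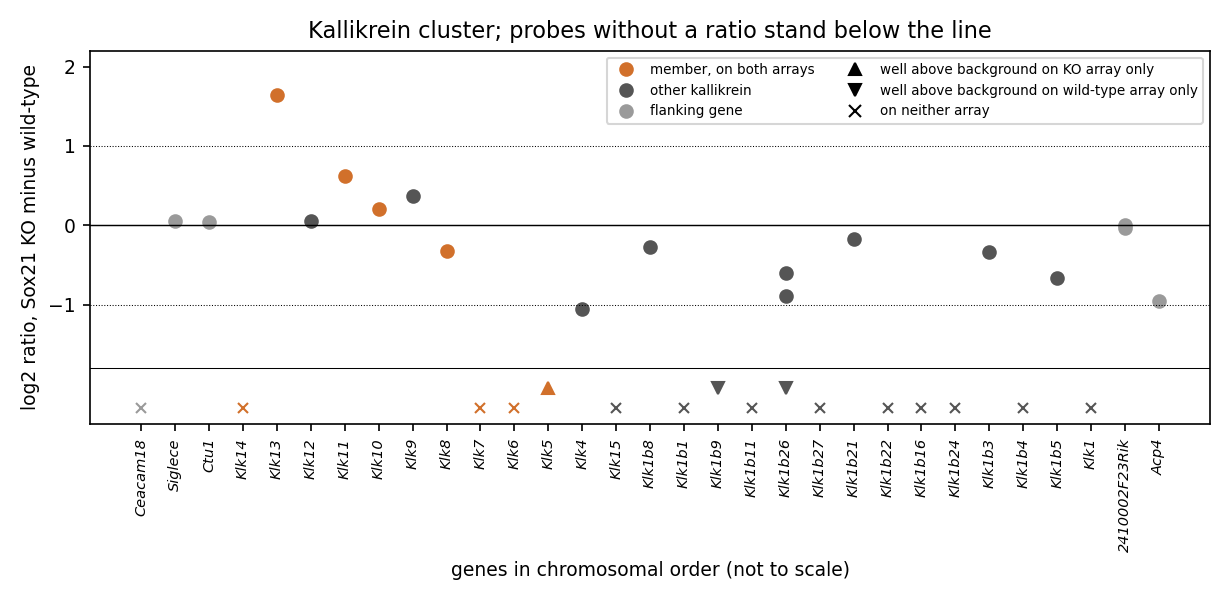
Log2 ratio (*Sox21* KO minus wild-type) of each probe in the kallikrein cluster and its flanks, with genes in chromosomal order and equal spacing. Members are orange, other kallikreins dark grey and flanking genes light grey, and probes without a ratio are drawn below the line by their mark. *Klk13* at 1.64 stands between dark *Klk14* and *Klk12* at 0.05, and *Klk4* at -1.05 follows *Klk5*.

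The other *Spink* genes, which encode related inhibitors, were mostly dark. Of 11 on the array, 10 were not well above background in either genotype, against 31.6% of all genes with a probe. The exception, *Spink2*, known from the male germ line, had normalized signals of 0.164 and 0.191, a log2 ratio of 0.22.

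Start regions of the member kallikreins are shown because *Sox21* encodes a factor that binds DNA. That of *Spink5* was not analysed here. RefSeq gives 10 starts for the 8 kallikreins, and the 250 bases before each were searched on both strands for ACAAT, the core letters bound by SOX factors, TGACTCA, which is the AP-1 site, TATAAA, which is the TATA box, GGGCGG, which is the GC box, and CACCC, which is the core of KLF sites. Matches may overlap. ACAAT stood in 2 of the 10 windows, those of *Klk7* and of 1 start of *Klk6*, against 27.7% of all 32851 promoter windows of this length. Neither gene was readable. CACCC stood in 7 of the 10, against 52% of all windows, and the GC box in 4, against 32.7%. The AP-1 site and the TATA box stood in 0 of the 10, against 4.46% and 12.4%. Windows of the kallikrein past 2-fold, the one above background in *Sox21* KO alone and the one with a negative ratio are printed from GRCm38.p6, plus strand, with CACCC and the GC box, on either strand, in capitals. They are chr7:43712317-43712566 for *Klk13*, chr7:43842019-43842268 for *Klk5* and chr7:43797327-43797576 for *Klk8*.
Klk13 upstream: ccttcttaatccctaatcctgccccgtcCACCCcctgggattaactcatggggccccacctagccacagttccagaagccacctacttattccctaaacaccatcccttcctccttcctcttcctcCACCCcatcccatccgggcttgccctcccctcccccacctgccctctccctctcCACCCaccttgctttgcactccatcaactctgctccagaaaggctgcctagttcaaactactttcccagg
Klk5 upstream: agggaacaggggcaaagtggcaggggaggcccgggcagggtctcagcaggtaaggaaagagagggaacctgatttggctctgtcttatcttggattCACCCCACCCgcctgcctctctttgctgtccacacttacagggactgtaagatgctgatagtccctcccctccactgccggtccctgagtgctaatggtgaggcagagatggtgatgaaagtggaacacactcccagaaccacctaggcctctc
Klk8 upstream: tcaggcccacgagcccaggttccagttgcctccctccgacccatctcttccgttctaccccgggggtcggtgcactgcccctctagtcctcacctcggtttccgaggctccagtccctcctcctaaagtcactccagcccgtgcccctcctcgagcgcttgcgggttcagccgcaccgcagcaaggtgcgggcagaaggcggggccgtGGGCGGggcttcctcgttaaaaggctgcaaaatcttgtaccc

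The *Klk13* window held 3 matches to CACCC, the *Klk5* window 2 adjoining ones, and the *Klk8* window none, but 1 match to the GC box. The *Klk8* window was also the richest in G and C, at 65.2%, against 57.6% for *Klk13* and 56.8% for *Klk5*. The matches are letters in a window and were not tied to binding by any measurement here.

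*St14*, which encodes matriptase, an activator of kallikrein precursors, had normalized signals of 7.08 and 4.73, a log2 ratio of -0.58. *Prss8*, which encodes prostasin, a partner of matriptase, had log2 ratios of 0.22 and 0.41 at its probes. Of 24 listed proteases and inhibitors of the pathway, 14 were readable on both arrays, against 65.0% of all genes with a probe. Of the 14, 8 had a positive and 6 a negative log2 ratio, against 52.4% and 47.6% of all readable genes. Their median was 0.12. Past 2-fold higher was 1, against 0.739%, and past 2-fold lower 0, against 0.667%. The one past 2-fold was *Slpi*, an inhibitor of leukocyte proteases and of the skin enzyme KLK7, at 0.716 and 1.93, a log2 ratio of 1.43. *Plau* and *Tmprss11e* were well above background on the *Sox21* KO array alone, with bounds of 1.62-fold and 1.59-fold. *Cst6*, an inhibitor of cysteine proteases in skin, was at -0.83.

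Of the readable substrates and downstream genes, 0 were past 2-fold lower, against 0.667% of all readable genes, and 1 was past 2-fold higher, against 0.739%. That gene, *Cdsn*, whose product corneodesmosin is cut in skin shedding, had normalized signals of 0.207 and 0.439, a log2 ratio of 1.08. *Dsg1a* and *Dsg1b*, which encode desmoglein 1, had log2 ratios of 0.81 and 0.98, whereas *Dsg1c* had 0.22. *Dsc1*, which encodes another junction protein of the upper epidermis, was dark. The 3 *Dsg1* genes are close copies, and signal at one probe may come from another. *Flg*, which encodes filaggrin, was well above background on the *Sox21* KO array alone, with a signal of 23.7 ± 5.56 in wild-type and 126.4 ± 13.5 in *Sox21* KO. Its normalized signals differed 5.18-fold. That is a plain ratio to a wild-type reading not well above background, and not a lower bound. *F2rl1*, which encodes the receptor PAR2 that these proteases cut, read 5.49 and 16.7, not well above background in either genotype. In all, 8 of 14 genes in this list were readable on both arrays, against 65.0% of all genes with a probe. Of these, 4 lay to each side of 0, against 52.4% higher and 47.6% lower among all readable genes, and their median was 0.09. The median of the list was -0.07 with no filter on background and -0.10 over genes with a normalized signal of at least 0.5 on both arrays.

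Listed marker genes of other surface tissues are given beside the members, and their counts are to be read against the shares over all genes. Of all genes with a probe, 65.0% were readable and 31.6% dark. Of all readable genes, 52.4% were higher and 47.6% lower, with 0.739% past 2-fold higher and 0.667% past 2-fold lower. Of 10 listed genes of oral mucosa, 7 were readable on both arrays, 6 of them higher and 4 at least 2-fold, with a median log2 ratio of 1.16. Their summed normalized level was 22.4 in wild-type and 44.1 in *Sox21* KO. *Krt4*, a keratin of the oral lining, was at least 7.81-fold higher, *Crnn*, which encodes cornulin, had a log2 ratio of -0.46, and *Krt76* and *Rptn* were dark. Of 16 genes of cornified skin, 10 were readable, 8 higher and 3 at least 2-fold, with a median of 0.34 and summed levels of 18.3 and 29.3. *Krt1*, a keratin of the layers above the basal one, had 1.45 and *Lor*, which encodes loricrin, 1.15. *Tgm1* and *Krt2* had 0.28 and 0.16, and *Tgm3* and *Casp14* -0.07 and -0.25, while *Flg2*, *Ivl*, *Sprr2d* and *Hrnr* were dark. The counts take the brightest readable probe of a gene. The dimmer probe of *Krt10* gave 1.84 against 0.34 at the brighter one, and that of *Krt13*, in the oral list, 1.94 against 0.56. The other probes of *Krt2* and *Tgm3* were dark. Of 15 hair shaft genes with a probe, 9 were readable, 7 higher and 2 at least 2-fold, with a median of 0.11, summed levels of 30.5 and 33.3, and 5 dark genes, among them *Krt33a*, *Krt34* and *Hoxc13*. The 2 past 2-fold were *Krt32*, a hair keratin, at 0.114 and 0.597, a log2 ratio of 2.40, and *Foxn1*, a transcription factor of the hair follicle, at 1.13. *Krt71*, a keratin of the inner root sheath, was above background in wild-type alone, at least 2.34-fold lower in *Sox21* KO.

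Of 12 general epithelial genes all were readable, 9 were higher and 0 reached 2-fold, with a median of 0.23. The highest were *Krt18* at 0.92 and *Krt19* at 0.87, keratins of simple epithelium. The summed levels were 576 and 677, of which the basal keratin *Krt5* alone gave 424.7 and 504.4. A summed level follows its brightest probes, as with *Amelx* among ameloblast genes. Of 11 ameloblast genes, 10 were readable and 8 lower, against 47.6% of all readable genes lower. At least 2-fold lower were 3, against 0.667%. The 2 higher ones were *Odam*, with 0.63 and 0.55 at its probes, and *Amelx* with 0.08. The median was -0.64 and the summed levels were 3170 and 2870. *Odaph* was dark. The 9 odontoblast and bone genes had a median of 0.55 and summed levels of 565 and 646, and the 8 readable skeletal muscle genes, of 9, a median of -0.55 and summed levels of 69.5 and 50.1, with *Mylpf* dark. The part of tissue composition in the higher signal of *Spink5*, *Klk13* and *Klk5* was not tested, and in a germ of several tissues more cells of a type and more RNA per cell cannot be told apart.

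**Figure D4:**
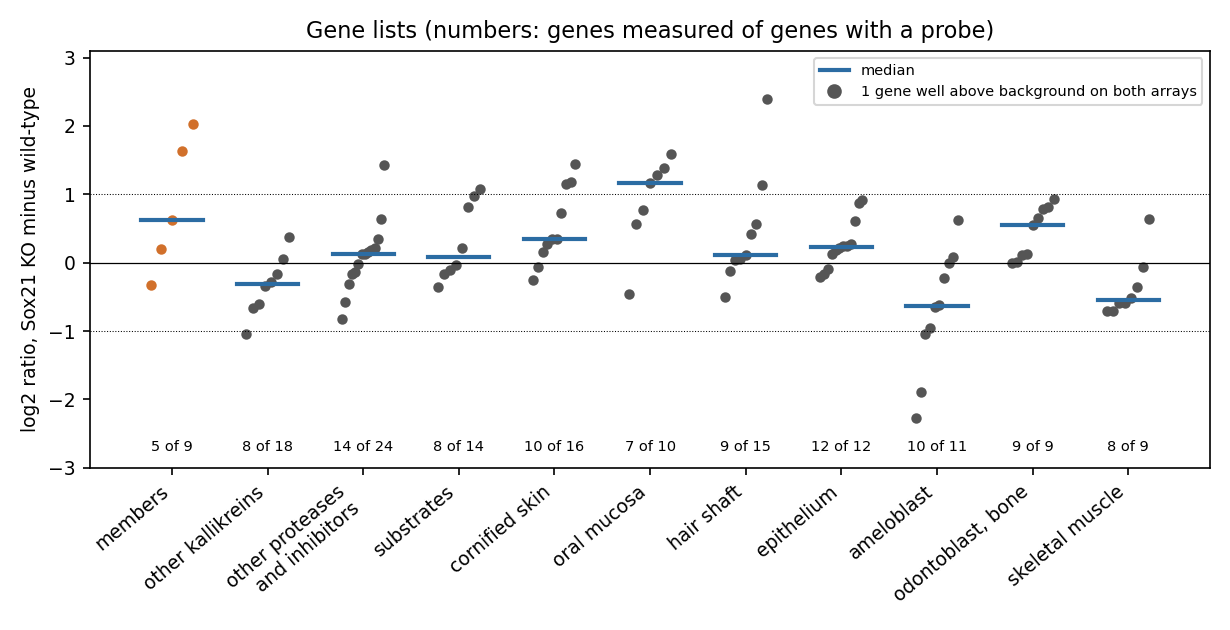
Log2 ratio (*Sox21* KO minus wild-type) of each gene well above background on both arrays, by list, with the median as a blue bar and the number of readable genes of those with a probe below. The members (orange) run from -0.33 to 2.03, and the oral mucosa list has its median above the dotted line at 2-fold.

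The members kept their signs under every scaling and background correction tried. *Spink5* ranged from 1.65 to 2.12, *Klk13* from 0.85 to 1.74, *Klk11* from 0.56 to 0.71, *Klk10* from 0.17 to 0.29 and *Klk8* from -0.37 to -0.24 on the log2 scale. Scaling on the median in place of the 75th percentile moved the median of all readable genes to 0.11, and the members moved with it.

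**Figure D5:**
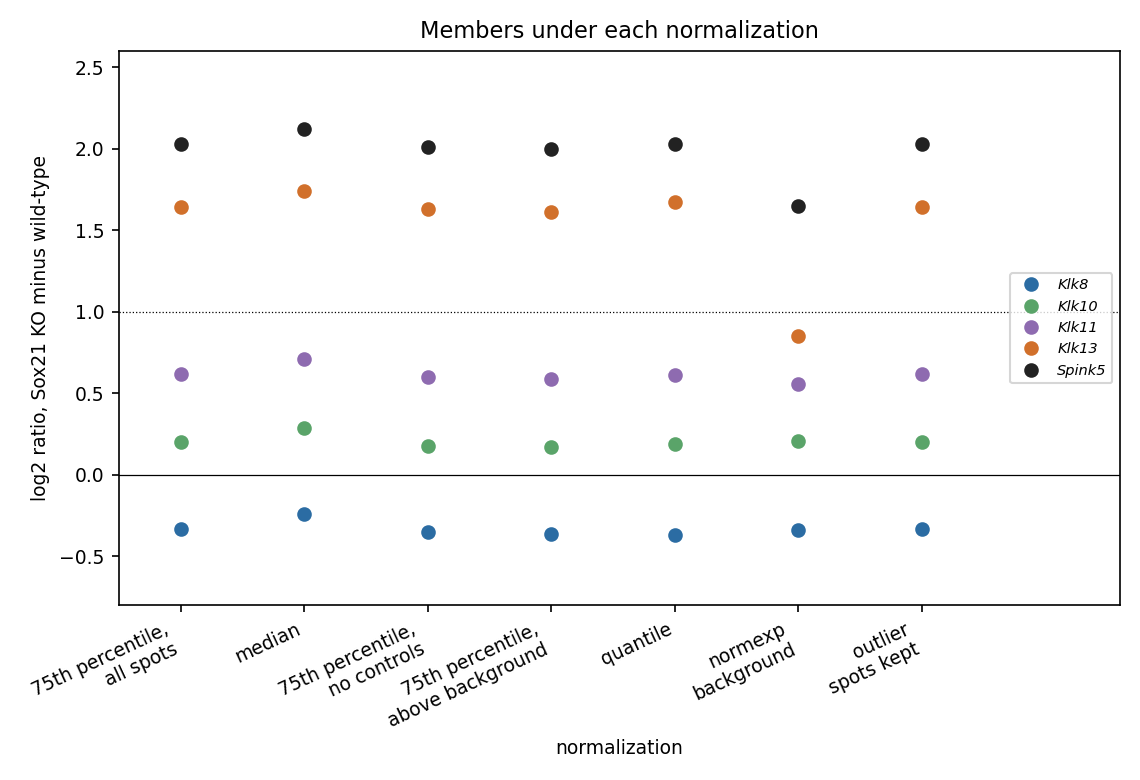
Log2 ratio (*Sox21* KO minus wild-type) of the 5 readable members under 7 normalizations, 1 point per gene and setting. The order of *Spink5*, *Klk13*, *Klk11*, *Klk10* and *Klk8* is the same throughout, and *Klk13* falls below the dotted line at 2-fold under normexp background correction.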

How the data were processed

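RNA of incisor tooth germ was labelled with Cy3 and hybridized to SurePrint G3 Mouse GE arrays, 1 for each genotype, on the same slide. Per the labels, Agilent Feature Extraction 10.7.3.1 was used. The authors deposited a processed signal intensity for each spot, with the background already removed, and the mean and local background intensities. The authors also deposited a table of linear ratios, in which each intensity is divided by 1 number per array that lies at the 75th percentile of its spots.

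Each processed signal was divided here by the 75th percentile of all 62976 spots of its array. Left out were 267 spots marked as outliers. Spots of a probe were averaged on the log2 scale. Other genes took the brightest probe well above background on both arrays, named through RefSeq accessions or symbols (26298 and 2044 probes, and 355 by an older symbol). Each member has 1 probe, taken by its gene name in the files. Named in the text are all members, the listed kallikreins and *Spink* genes above background, the listed proteases, inhibitors and substrates past 2-fold, *St14*, *Prss8*, *Dsg1a*, *Cdsn*, *Flg*, *F2rl1* and *Sox21*; the other genes of the text were chosen after their values were seen. The members and gene lists were chosen with earlier results of these data known. No test was run. On simulated arrays with 200 genes changed 4-fold, 127 of these were above background on both arrays and all 127 were called, with 0 unchanged genes called, among 14381 genes. The rest of the changed genes could not be called. Both simulated arrays were built from the wild-type signals, with noise set in advance and no spread between animals. The 0 unchanged genes called therefore gives no rate of false calls for the real arrays. The tools were limma 3.58.1 in R 4.3.3, and pandas 2.3.3 with numpy 2.4.6 in Python 3.11.15. The protein sequences were not analysed here.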

Additional observations from a re-analysis of the deposited data

How the results depend on the processing

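With 1 array per genotype no array could be left out, and no paired analysis was possible because the labels give no replicate numbers. Single spots and dim signals limit *Klk5*, *Klk6*, *Klk7*, *Klk13* and *Klk14* most. The deposited value table, the 75th percentile without controls or over probes above background on both arrays, quantile normalization and the outlier spots moved no count of members past 2-fold and no list median beyond the SD between repeat spots.

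Scaling on the median moved the list medians to 0.71 for the members, -0.21 for other kallikreins, 0.22 for other proteases and inhibitors, 0.19 for substrates, 0.44 for cornified skin, 1.25 for oral mucosa, 0.21 for hair shaft, 0.33 for epithelium, -0.54 for ameloblasts, 0.64 for odontoblasts and bone, and -0.45 for skeletal muscle. It moved the share of 2-fold calls that were higher from 52.6% to 68.2%. Under normexp background correction, 1 member (*Spink5*) was at least 2-fold higher in place of 2. All genes then gave 46 higher and 40 lower in place of 102 and 92, and the medians were -0.13 for other kallikreins, 0.71 for oral mucosa, 0.37 for odontoblasts and bone and -0.44 for skeletal muscle. With no filter on background, 3 members were at least 2-fold higher in place of 2, and of all genes 508 were higher and 695 lower. The medians were then 0.20 for the members and -0.07 for substrates, which turned its direction. With the scanner's weaker mark as the filter, 293 were higher and 321 lower, and the medians were 0.41 for the members, 0.22 for substrates and 0.54 for cornified skin. With a normalized signal of at least 0.5 on both arrays, which leaves out *Klk13*, 1 member was past 2-fold, 44 genes were higher and 42 lower, and the medians were 0.41 for the members, -1.05 for other kallikreins, where *Klk4* alone remained, -0.10 for substrates, which turned its direction, 1.02 for oral mucosa and 0.34 for odontoblasts and bone. At 1.5-fold, 3 members were higher and 0 lower, and of all genes 441 were higher and 412 lower. At 3-fold, 2 members were higher and 0 lower, and of all genes 24 and 20. The mean over probes gave medians of 0.53 for cornified skin, 1.25 for oral mucosa and 0.63 for odontoblasts and bone. Where no cause is named, the cause was not tested.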

Other observations

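The glandular kallikreins, the *Klk1* and *Klk1b* genes that follow *Klk15* in the cluster and are known from the mouse salivary gland, number 14 on the list. Of these 8 were dark, against 31.6% of all genes with a probe, and 5 were readable on both arrays, all 5 with a negative log2 ratio, against 47.6% of all readable genes, and 0 past 2-fold. *Klk1b9* was well above background in wild-type alone, with a signal of 89.8 against 7.63, at least 4.75-fold lower in *Sox21* KO by 1 spot. *Klk1b26* had log2 ratios of -0.60 and -0.89 at the probes readable on both arrays, *Klk1b5* -0.66, *Klk1b3* -0.34, *Klk1b8* -0.28 and *Klk1b21* -0.17. These genes are close copies of each other, so a probe may read more than one of them.

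*Klk1b11* shows how far a single spot of a dark probe can stray, since its probe was spotted 10 times. On the wild-type array 1 spot read 33.4 and was marked well above background, while the other 9 lay between 4.41 and 5.72. The scanner software marked that spot as an outlier. Members of the present group have 1 spot each, so no such comparison between spots is possible for them.

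Past the far end of the cluster, beyond *Klk1* and *2410002F23Rik*, lies *Acp4*, an acid phosphatase gene whose loss causes thin enamel. Its normalized signal was 9.93 in wild-type and 5.11 in *Sox21* KO, a log2 ratio of -0.96, close to the -1.05 of *Klk4*. *2410002F23Rik*, between *Klk1* and *Acp4*, had log2 ratios of -0.00 and -0.04 at its probes.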
